A study of Homo sapiens with 6 samples.

Results

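The genes described here are 10 regulators of DNA methylation, UHRF1, UHRF2, DNMT1, HELLS, CDCA7, DNMT3A, DNMT3B, TET1, TET2 and TET3, out of 23204 gene symbols in the RNA-seq tables. They were chosen by name, and UHRF1 and HELLS were among them because both were lower after depletion of DDX3X in these same libraries. Their values with DDX3X siRNA are therefore a description and not an independent finding. All 10 genes were found, in 23 of the 39618 rows (1 row per RefSeq transcript), and all 10 passed the filter on low values in every comparison. For each gene, the row with the highest mean over the 6 libraries is reported.

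HEK293T, an established line from human embryonic kidney that expresses SV40 large T antigen, was used throughout. In the knockdown arm, cells received a pool of non-targeting control siRNAs or siRNAs to DDX3X, a DEAD-box RNA helicase, for 48 h. In the overexpression arm, cells were transfected with 5 µg of plasmid encoding GFP alone, GFP-WT DDX3X, GFP-DDX3X T275M or GFP-DDX3X G302V, and the GFP+ population was collected by flow cytometry after 32 h. Each of the 6 groups held 1 library. Endogenous DDX3X was present in all 4 plasmid groups, while the siRNA groups are not described as sorted. The promoter of the plasmids was not given in the sources used here. A legend in the study names G302V and G325E where the labels name T275M and G302V, so the T275M library is identified by its label.

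With 1 library per group there is no replicate error and no test between conditions. Levels are given in RPKM (reads per kilobase of row per 1000000 reads) and differences as log2 ratios of RPKM + 1, a scale that understates the change of genes at low level. The intervals are 95% intervals from the reads behind each value, and they cover counting error only. A gene is called higher or lower here when its counting interval lies wholly on 1 side of 0, and past 2-fold when its log2 ratio is at least 1 in size. The libraries held between 43720000 and 180870000 recovered reads, and the DDX3X siRNA library was the deepest. DDX3X itself was at 107 RPKM with control siRNA and at 31.3 RPKM with DDX3X siRNA, which is 29.3% of the control. It was at 119 RPKM with GFP, 2894 RPKM with WT, 3279 RPKM with T275M and 1906 RPKM with G302V, so the 3 overexpression libraries did not hold equal amounts of DDX3X RNA.

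The cell type label of these samples reads neuronal. Of 12 neuron markers, 4 to 6 reached 1 RPKM in a library and 2 to 4 were at 0, with ELAVL4 and SLC17A6 at 0 in all 6. The summed level of the list ran from 15.5 to 22.7 RPKM, and its most abundant gene was TUBB3 in every library. Of 8 kidney markers, 3 or 4 reached 1 RPKM, with a summed level of 20.8 to 25.9 RPKM led by SIX2. SNAP25, a synaptic marker, was the 1 marker past 2-fold in any comparison, at 0.115 RPKM with GFP and 1.38 RPKM with WT (log2 ratio 1.09).

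Methylation of cytosine in CpG dinucleotides is copied after each round of DNA replication. UHRF1 binds hemimethylated DNA behind the replication fork and recruits DNMT1, the maintenance methyltransferase. HELLS is a chromatin remodelling ATPase that acts with CDCA7 and gives the methylation machinery access to nucleosomal DNA. DNMT3A and DNMT3B place new methyl groups, and TET1, TET2 and TET3 oxidise 5-methylcytosine, which leads to its removal. UHRF2 is a paralog of UHRF1. DNA methylation itself was not measured in these samples, only the RNA of these genes.

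UHRF1, HELLS and several partners are expressed in dividing cells, so the windows before their transcription starts were read on both strands for letters of the kind bound by E2F factors. The cores searched were TTTCCCG (in 4.286% of all windows), the core TTTCGCG (in 1.318%), the core TTTGGCG (in 1.917%) and the core TTTGCCG (in 1.637%). CCAAT, the letters of the CCAAT box, was searched as well. RefSeq windows of 250 bases before to 50 bases after a start were found for all 10 genes, 21 windows in all. An E2F-type core was in 5 of the 21 windows (23.8%), 2 of them of UHRF1 and the others of DNMT1, HELLS and CDCA7, and in 8.67% of the 35116 windows in the RefSeq table (GRCh38.p14). None was in the windows of UHRF2, DNMT3A, DNMT3B or the TET genes. For DNMT3B and TET3 no window lay at the start of the row reported, so those starts were not read. On GRCh37 the DNMT3B window had its start at 31367658 and the row at 31350191. The TET3 windows had theirs at 74212037 and 74229819 and the row at 74273450. CCAAT was in 7 of the 21 windows (33.3%) and in 34.6% of all windows. Each E2F-type core holds a CpG, and the 5 windows with a core held 20 to 40 CpG, against a median of 14 over all windows. Some windows of the same gene also overlap, as for UHRF1 and DNMT3A. The part of CpG content in the share with a core was not tested.

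The 250 bases before the start are shown for the 2 genes that were lowest with DDX3X siRNA and for TET1, the gene that was highest in the mutant libraries. For each gene the first window in the table is shown, and the other windows of UHRF1 and TET1 differ from it in these letters. Capitals mark the E2F-type cores and CCAAT on either strand. The windows are chr19:4909251-4909500 for UHRF1, chr10:94545538-94545787 for HELLS and chr10:68560087-68560336 for TET1, all on the plus strand of GRCh38.p14.
UHRF1: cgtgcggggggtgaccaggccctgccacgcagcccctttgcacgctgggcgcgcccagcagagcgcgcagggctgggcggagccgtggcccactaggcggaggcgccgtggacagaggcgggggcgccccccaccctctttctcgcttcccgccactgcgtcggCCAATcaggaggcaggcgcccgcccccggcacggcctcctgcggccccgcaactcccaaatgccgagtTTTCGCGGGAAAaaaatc
HELLS: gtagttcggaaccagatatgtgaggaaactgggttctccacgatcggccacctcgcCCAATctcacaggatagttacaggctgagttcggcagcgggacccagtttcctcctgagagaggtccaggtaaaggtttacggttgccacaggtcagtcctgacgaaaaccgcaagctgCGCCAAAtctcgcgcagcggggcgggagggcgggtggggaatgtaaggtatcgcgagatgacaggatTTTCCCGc
TET1: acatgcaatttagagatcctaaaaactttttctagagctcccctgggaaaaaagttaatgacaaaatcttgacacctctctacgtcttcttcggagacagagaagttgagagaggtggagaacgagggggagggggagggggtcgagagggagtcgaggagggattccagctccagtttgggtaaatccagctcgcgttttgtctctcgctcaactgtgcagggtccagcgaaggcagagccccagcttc
In the UHRF1 window shown, TTTCGCG began 18 bases before the start and overlapped a TTTCCCG core on the opposite strand that ended 7 bases before the start. A further core, TTTGCCG, lay from base 28 to base 34 after the start, outside the letters shown. In the HELLS window, a TTTGGCG core on the opposite strand began 75 bases before the start and TTTCCCG began 8 bases before it. The TET1 window shown held no core and no CCAAT. Of the 3 windows of TET1, the other 2 each held CCAAT but no core, and of the 3 windows of UHRF1, 1 held neither. A match of letters describes the window and does not show that a factor was bound.

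The level of UHRF1 was lowest with DDX3X siRNA. UHRF1 (chr19:4903092-4962165, plus strand; all gene positions are GENCODE version 44 on GRCh37) was at 57.3 RPKM with GFP, 57.2 with WT, 50.01 with T275M, 46.5 with G302V, 48.9 with control siRNA and 22.8 with DDX3X siRNA. The 5 other libraries lay between 46.5 and 57.3 RPKM, and DDX3X siRNA lay below all of them, at 46.6% of its control. The log2 ratio of DDX3X siRNA to control siRNA was -1.07 (-1.10 to -1.04), from 16074 and 12877 reads. UHRF1 was the 1 gene of the 10 past 2-fold in this comparison, in which 0.063% of the 12694 genes tested were past 2-fold lower and 0.0473% past 2-fold higher. It ranked 5 from the lowest of all genes tested. The second UHRF1 row, a transcript with a different first exon, gave 46.0 RPKM with control siRNA and 21.6 with DDX3X siRNA, a log2 ratio of -1.06, but rows of 1 gene share reads. In bulk RNA, fewer cells that express a gene and less of its RNA per cell cannot be told apart. Median-ratio scaling of the libraries gave -0.99 and a pseudocount of 10 RPKM gave -0.85, both short of 2-fold.

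**Figure D1:**
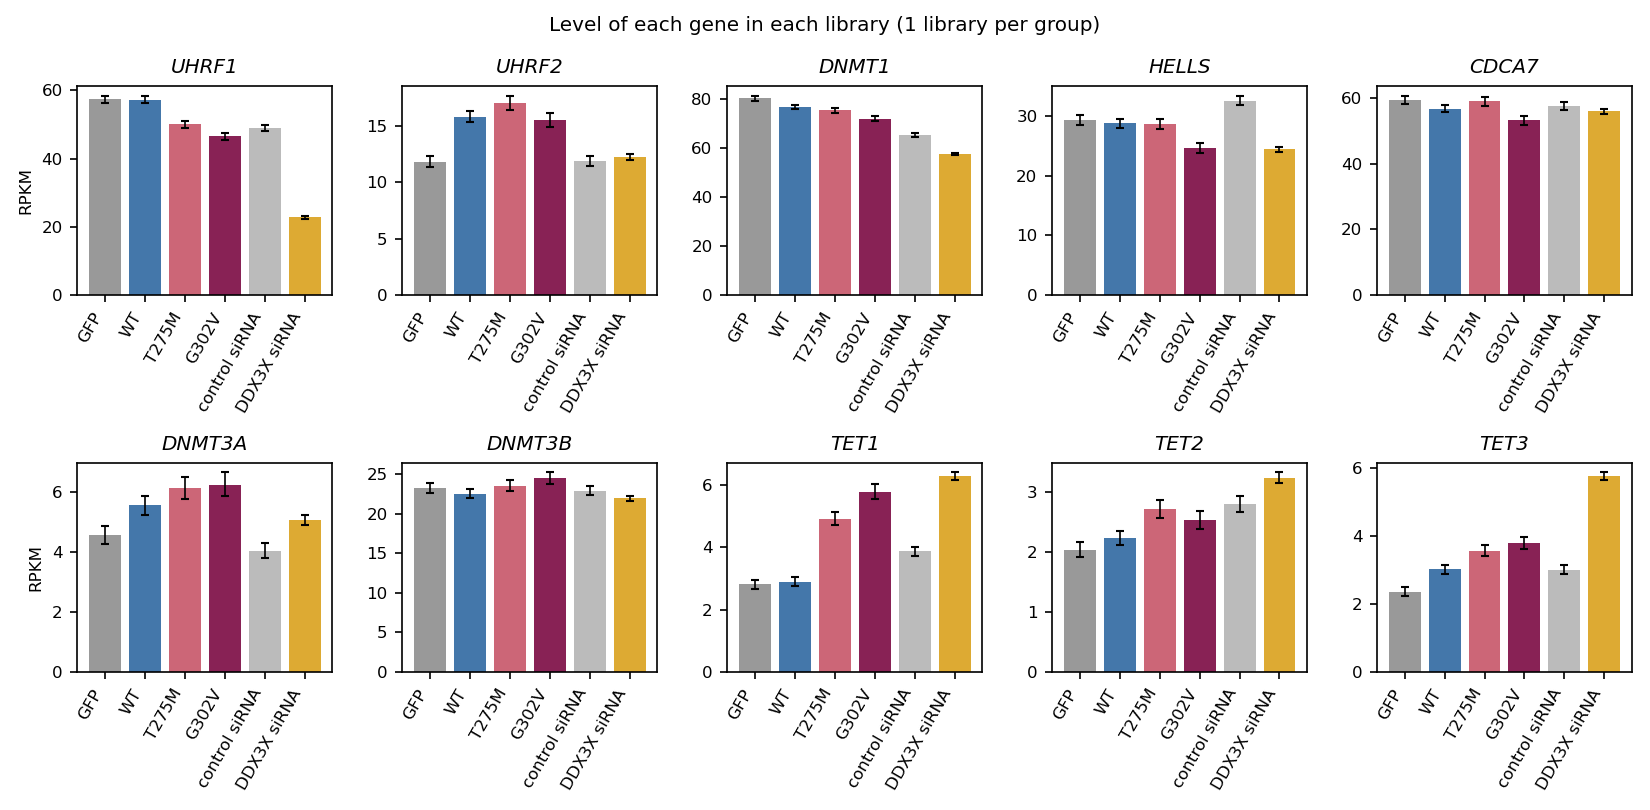
Level of each of the 10 genes in RPKM (vertical axes, each from 0) in the 6 libraries, 1 per group. Bars are single libraries and error bars are 95% counting intervals, not replicate error. UHRF1 stands at 22.8 RPKM with DDX3X siRNA and between 46.5 and 57.3 RPKM elsewhere, while the TET genes are highest with DDX3X siRNA.

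UHRF1 was also lower with both mutants than with GFP, by less. The log2 ratio was -0.19 (-0.23 to -0.15) for T275M and -0.30 (-0.34 to -0.26) for G302V, against -0.00 (-0.04 to 0.03) for WT. WT and GFP were therefore next to each other in the order of UHRF1 levels and their counting intervals overlapped, as did those of control siRNA and T275M. With median-ratio scaling, UHRF1 against GFP was at -0.29 with T275M, -0.34 with G302V and -0.10 with WT. The WT value then lay below the interval given above. Set directly against WT, UHRF1 was at -0.19 in T275M and -0.29 in G302V. These comparisons share the GFP or the WT library and are not separate pieces of evidence.

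HELLS (chr10:96305086-96373662, plus strand) was at 29.3 RPKM with GFP, 28.8 with WT, 28.6 with T275M, 24.7 with G302V, 32.5 with control siRNA and 24.4 with DDX3X siRNA. The lowest levels were those of DDX3X siRNA and G302V, whose intervals overlapped, and the highest was that of control siRNA. The log2 ratio with DDX3X siRNA was -0.40 (-0.44 to -0.36), a level of 75.02% of the control and rank 496 from the lowest. With G302V it was -0.24 (-0.30 to -0.18) against GFP and -0.21 (-0.27 to -0.15) against WT. With T275M (-0.03, from -0.09 to 0.03) and WT (-0.03, from -0.08 to 0.03) the interval against GFP included 0. Both values depended on the scaling. With median-ratio scaling HELLS was at -0.13 with T275M and -0.13 with WT. After removal of a fit on row length and GC content it was at -0.19 with T275M and -0.16 with WT. All of these lay below the intervals given. HELLS was below 2-fold in every comparison.

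DNMT1 (chr19:10244018-10341962, minus strand), the methyltransferase that UHRF1 recruits, was the most abundant of the 10 genes in all 6 libraries. Its level was 80.4 RPKM with GFP, 76.9 with WT, 75.6 with T275M, 72.2 with G302V, 65.5 with control siRNA and 57.8 with DDX3X siRNA. The 4 sorted plasmid libraries all lay above the 2 siRNA libraries. DNMT1 was lower with DDX3X siRNA than with control siRNA by a small amount, a log2 ratio of -0.18 (-0.20 to -0.16). It was at -0.15 with G302V, -0.09 with T275M and -0.06 with WT against GFP, and all 3 intervals lay below 0.

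UHRF2 (chr9:6413151-6507054, plus strand) did not follow UHRF1. Its level was 11.8 RPKM with GFP, 15.8 with WT, 17.0 with T275M, 15.5 with G302V, 11.9 with control siRNA and 12.2 with DDX3X siRNA. The 3 libraries with a DDX3X plasmid, wild type or mutant, were above the other 3 libraries without overlap. Against GFP, UHRF2 was higher with WT (0.39, from 0.32 to 0.46), T275M (0.49, from 0.42 to 0.56) and G302V (0.36, from 0.28 to 0.44). With DDX3X siRNA the log2 ratio was 0.04 (-0.02 to 0.10), an interval that included 0. Median-ratio scaling gave 0.12, above that interval, so this small value depended on the scaling. The ratio of UHRF1 to UHRF2 levels was 4.84 with GFP, 4.12 with control siRNA, 3.62 with WT, 3.005 with G302V, 2.94 with T275M and 1.86 with DDX3X siRNA.

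CDCA7 (chr2:174219548-174233725, plus strand), the partner of HELLS, varied least of the 10 genes together with DNMT3B. Its level was 59.2 RPKM with GFP, 56.7 with WT, 58.9 with T275M, 53.1 with G302V, 57.5 with control siRNA and 55.8 with DDX3X siRNA. The highest level was 1.11 times the lowest. With DDX3X siRNA its log2 ratio was -0.04 (-0.07 to -0.01), a value whose sign turned with median-ratio scaling (0.04) and after removal of a fit on row length and GC content (0.03). CDCA7 was lower with G302V than with GFP, at -0.15 (-0.20 to -0.11).

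The de novo methyltransferases differed from each other. DNMT3B (chr20:31350191-31397165, plus strand) lay between 22.0 RPKM with DDX3X siRNA and 24.5 RPKM with G302V, and each library's interval overlapped that of its neighbour in the order. Its log2 ratio with DDX3X siRNA was -0.06 (-0.10 to -0.02) and turned to 0.02 with median-ratio scaling. DNMT3A (chr2:25450724-25565459, minus strand) was at 4.57 RPKM with GFP, 5.55 with WT, 6.12 with T275M, 6.25 with G302V, 4.05 with control siRNA and 5.06 with DDX3X siRNA. Both control libraries were the lowest and had overlapping intervals. DNMT3A was higher with DDX3X siRNA (0.26, from 0.18 to 0.35) and, against GFP, with WT (0.23, from 0.13 to 0.34), T275M (0.35, from 0.24 to 0.46) and G302V (0.38, from 0.27 to 0.49). DNMT3B was 3.85 to 5.66 times as abundant as DNMT3A.

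The TET dioxygenases and DNMT3A were the least abundant of the 10 genes, and all 3 TET genes were highest with DDX3X siRNA. TET3 (chr2:74212037-74335303, plus strand) was at 2.37 RPKM with GFP, 3.03 with WT, 3.57 with T275M, 3.81 with G302V, 3.01 with control siRNA and 5.77 with DDX3X siRNA. The DDX3X siRNA library lay above the other 5. The log2 ratio was 0.76 (0.71 to 0.81), from 11469 and 2232 reads, and the ratio of RPKM was 1.92. TET3 ranked 38 from the highest of the 12694 genes tested. At a threshold of 1.5-fold, TET3 was the 1 member above and UHRF1 the 1 member below, where 1.04% of all genes were higher and 0.961% lower. TET1 was just short of this threshold.

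TET1 (chr10:70320094-70454244, plus strand) was higher with both mutants but not with WT. Its level was 2.81 RPKM with GFP, 2.90 with WT, 4.91 with T275M, 5.78 with G302V, 3.87 with control siRNA and 6.28 with DDX3X siRNA. GFP and WT were the lowest and had overlapping intervals, and both mutants and DDX3X siRNA lay above the other 3 libraries, as for TET3. The log2 ratio with DDX3X siRNA was 0.58 (0.53 to 0.63), rank 134 from the highest. Against GFP it was 0.63 (0.56 to 0.71) with T275M and 0.83 (0.76 to 0.90) with G302V, but 0.03 (-0.04 to 0.11) with WT. Against WT it was 0.60 (0.53 to 0.67) with T275M, rank 11 from the highest of 12973 genes, and 0.80 (0.73 to 0.87) with G302V, rank 7 from the highest of 12967. In RPKM, TET1 was 2.06 times as high with G302V as with GFP, and the log2 ratio reached 1.02 with a pseudocount of 0.1 RPKM.

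TET2 (chr4:106067032-106200973, plus strand) was at 2.03 RPKM with GFP, 2.23 with WT, 2.71 with T275M, 2.53 with G302V, 2.80 with control siRNA and 3.24 with DDX3X siRNA. DDX3X siRNA was again the highest, but the libraries differed less than for TET1 and TET3. The log2 ratio was 0.16 (0.10 to 0.21) with DDX3X siRNA, and 0.09, 0.29 and 0.22 with WT, T275M and G302V against GFP. The summed level of the 3 TET genes was 9.67 RPKM with control siRNA and 15.3 with DDX3X siRNA, and 7.21, 8.16, 11.2 and 12.1 with GFP, WT, T275M and G302V. The summed level of UHRF1 and DNMT1 was 11.8 times that of the TET genes with control siRNA and 5.27 times with DDX3X siRNA. The same ratio was 19.1 with GFP, 16.4 with WT, 11.2 with T275M and 9.79 with G302V, so it also differed between the control libraries.

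The rows of the TET genes are among the longest in the tables, at 9584 bases for TET1, 9780 for TET2 and 10982 for TET3, and long rows were higher as a group in the same libraries. Among rows of at least 8000 bases, the median log2 ratio with DDX3X siRNA was 0.19 (537 rows), against -0.02 over all genes tested. It was 0.25 against 0.03 with G302V, 0.17 against 0.07 with T275M and 0.06 against 0.05 with WT, each relative to GFP. TET2 lay within this group with DDX3X siRNA, where 300 of the 536 other long rows had a higher ratio. TET3 was exceeded there by 2 and TET1 by 20 of the 536. With the mutants, none of the other long rows exceeded TET1, 0 of 527 with T275M and 0 of 525 with G302V against GFP, and 0 of 527 and 0 of 529 against WT.

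**Figure D2:**
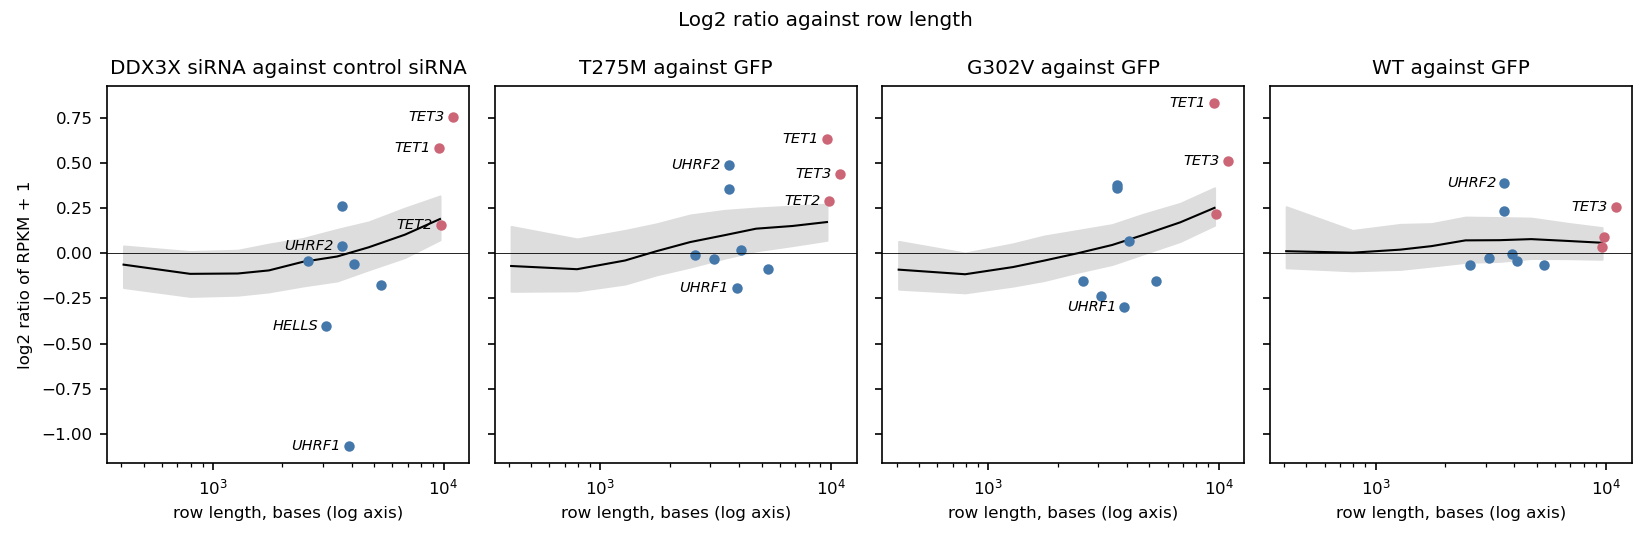
Log2 ratio of RPKM + 1 (vertical axis) against row length in bases (log axis) for DDX3X siRNA against control siRNA and for T275M, G302V and WT against GFP. The line is the median and the band the quartiles of all genes in bins of row length; red points are the TET genes and blue points the other 7 genes. TET1 lies above the band with DDX3X siRNA and both mutants and inside it with WT.

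After removal of a quadratic fit on row length and GC content, the values with DDX3X siRNA were 0.50 for TET3, 0.42 for TET1 and 0.00 for TET2. With G302V against GFP they were 0.60 for TET1, 0.27 for TET3 and -0.02 for TET2, and with T275M 0.41, 0.28 and 0.06 for the same genes. UHRF1 stood at -1.11 and HELLS at -0.35 with DDX3X siRNA in the same fit. The part of row length in the TET differences was not tested.

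With DDX3X siRNA, 4 of the 10 genes were higher (DNMT3A and the TET genes) and 5 lower (UHRF1, HELLS, DNMT1, CDCA7 and DNMT3B) beyond counting error. Such calls were common at this depth, at which 32.8% of all genes were higher and 40.1% lower. The median of the 10 genes was -0.00, against -0.02 over all genes tested, so the middle of the set lay close to that of all genes. TET3, TET1, DNMT3A and TET2 lay farthest above it, and UHRF1, HELLS and DNMT1 farthest below it.

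**Figure D3:**
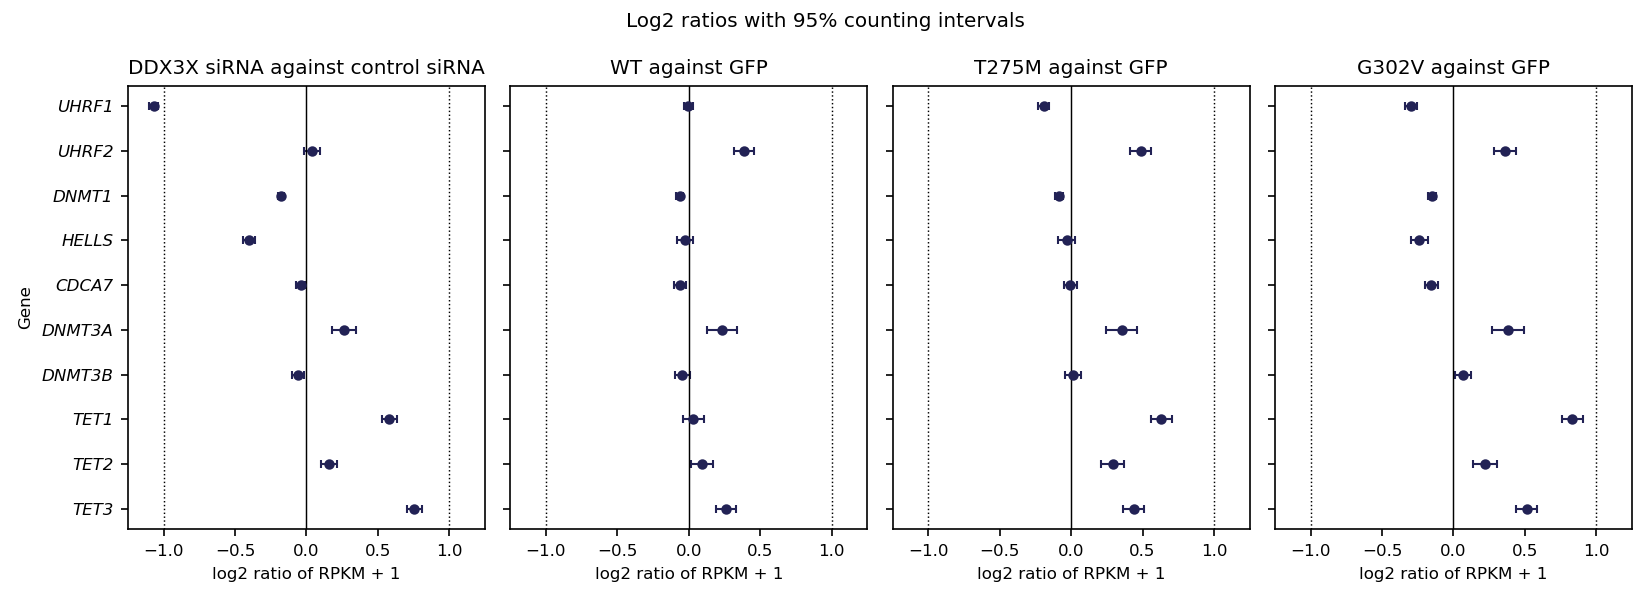
Log2 ratios of RPKM + 1 (horizontal axes) of the 10 genes in 4 comparisons, with 95% counting intervals as bars and dotted lines at 2-fold. UHRF1 is past 2-fold with DDX3X siRNA, at -1.07, and no gene is past 2-fold in the plasmid comparisons, where TET1 is highest with both mutants.

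With WT against GFP, 4 members were higher (UHRF2, DNMT3A, TET2 and TET3) and 2 lower (DNMT1 and CDCA7), where 41.1% of all genes were higher and 21.3% lower. The value of TET2 (0.09) turned to -0.02 after removal of the length and GC fit. None of the 10 was past 2-fold, as were 0.248% of all genes in either direction, and none past 1.5-fold, as were 2.21%. With T275M, 5 members were higher and 2 lower (44.2% and 23.4% of all genes), and TET1 was the 1 member past 1.5-fold (2.64% of all genes; 0.372% past 2-fold). With G302V, 6 were higher and 4 lower (35.1% and 26.3%), and TET1 was again the 1 member past 1.5-fold (1.77%; 0.305% past 2-fold). Of these, TET2 (0.22) and DNMT3B (0.07) with G302V both turned to -0.02 after removal of the length and GC fit.

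The mutants were also compared with wild-type DDX3X, where both libraries overexpressed DDX3X but in unequal amounts. DDX3X was at 2894 RPKM with WT, 3279 with T275M and 1906 with G302V, so mutation and amount cannot be told apart. With T275M, 7 members were higher than with WT and 1, UHRF1, was lower, where 24% of all genes were higher and 20.5% lower. With G302V, 5 were higher (DNMT3A, DNMT3B and the TET genes) and 4 lower (UHRF1, DNMT1, HELLS and CDCA7), where 26.2% were higher and 35.8% lower. TET1 was the 1 member past 1.5-fold in both, against 0.347% and 1.76% of all genes, and no member was past 2-fold, as were 0.0771% and 0.185% of all genes.

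**Figure D4:**
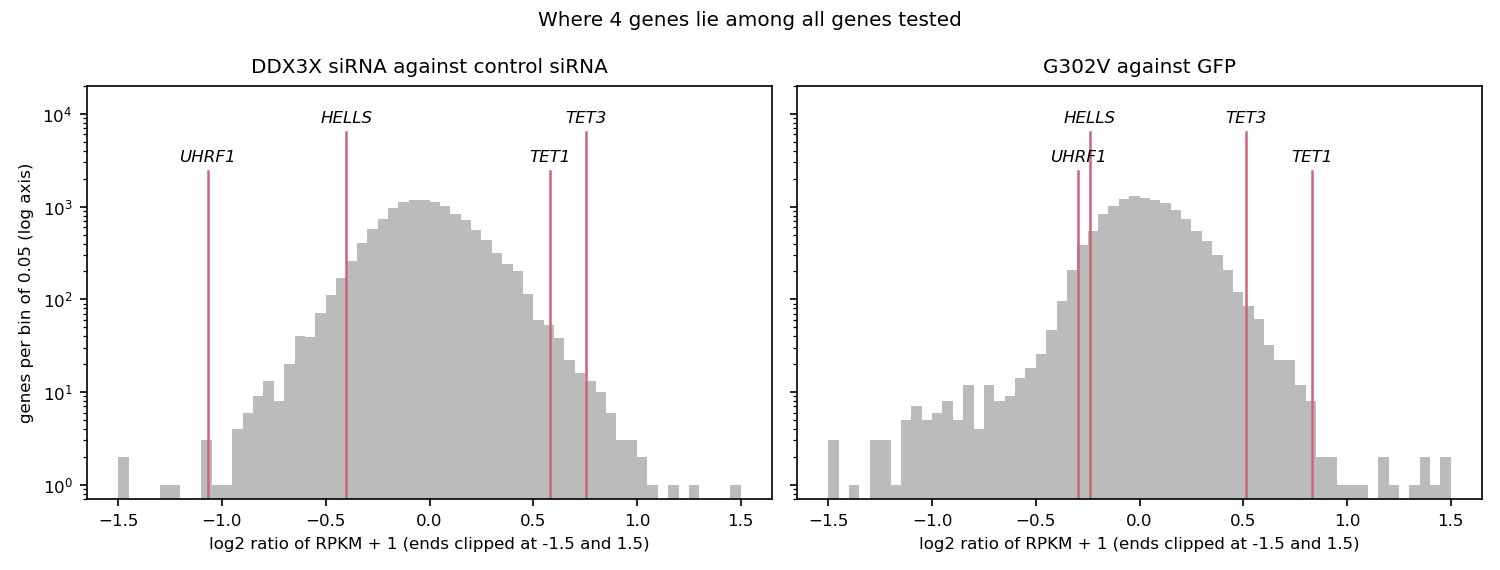
Number of genes per bin of 0.05 (vertical log axis) by log2 ratio of RPKM + 1, for all genes tested with DDX3X siRNA against control siRNA (left) and G302V against GFP (right). Red lines mark UHRF1, HELLS, TET1 and TET3. UHRF1 lies in the far lower tail on the left, at rank 5 of 12694, and TET1 in the far upper tail on the right, at rank 18 of 12775.

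The 2 control libraries differed from each other, which bears on every comparison across the arms. GFP was above control siRNA for DNMT1 (0.29, from 0.27 to 0.32) and UHRF1 (0.22, from 0.19 to 0.26), and below it for TET1 (-0.35), TET2 (-0.32), TET3 (-0.25) and HELLS (-0.15). In all, 4 members were higher and 4 lower, where 33.2% of all genes were higher and 31.3% lower, and none was past 1.5-fold (2.33% of all genes) or 2-fold (0.503%). Long rows had a median of -0.24 in this comparison. Transfection, time and sorting cannot be told apart here.

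Most of a list of 42 genes of S phase and of E2F control were lower with DDX3X siRNA and with G302V. With DDX3X siRNA, 38 of the 42 were lower and 3 higher, with a median of -0.24, where 40.1% of all genes were lower and 32.8% higher. They ran from MCM2, a subunit of the replicative helicase, at -0.49 to E2F1, a transcription factor of the entry into S phase, at 0.66. UHRF1 was below all 42, whereas 5 of the 42 were below HELLS and 30 below DNMT1. Of 22 genes of G2 and mitosis, 19 were lower and 2 higher, with a median of -0.26, from the kinesin KIF20A at -0.39 to the proliferation marker MKI67 at 0.11. With G302V against GFP, 38 of the 42 S phase genes were lower and 0 higher (median -0.20), where 26.3% of all genes were lower, and 4 of the 42 were below UHRF1. With T275M 23 were lower and 10 higher (median -0.08), where 23.4% of all genes were lower and 44.2% higher. With WT 12 were lower and 19 higher (median 0.03), where 21.3% of all genes were lower and 41.1% higher. The control libraries also differed. For GFP against control siRNA, 34 of the 42 were higher and 3 lower (median 0.10), where 33.2% of all genes were higher and 31.3% lower. Of the 22 genes of G2 and mitosis, 12 were lower and 4 higher with G302V against GFP (median -0.06). In that comparison 26.3% of all genes were lower and 35.1% higher. The part of the cell cycle in the levels of UHRF1 and HELLS was not tested.

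**Figure D5:**
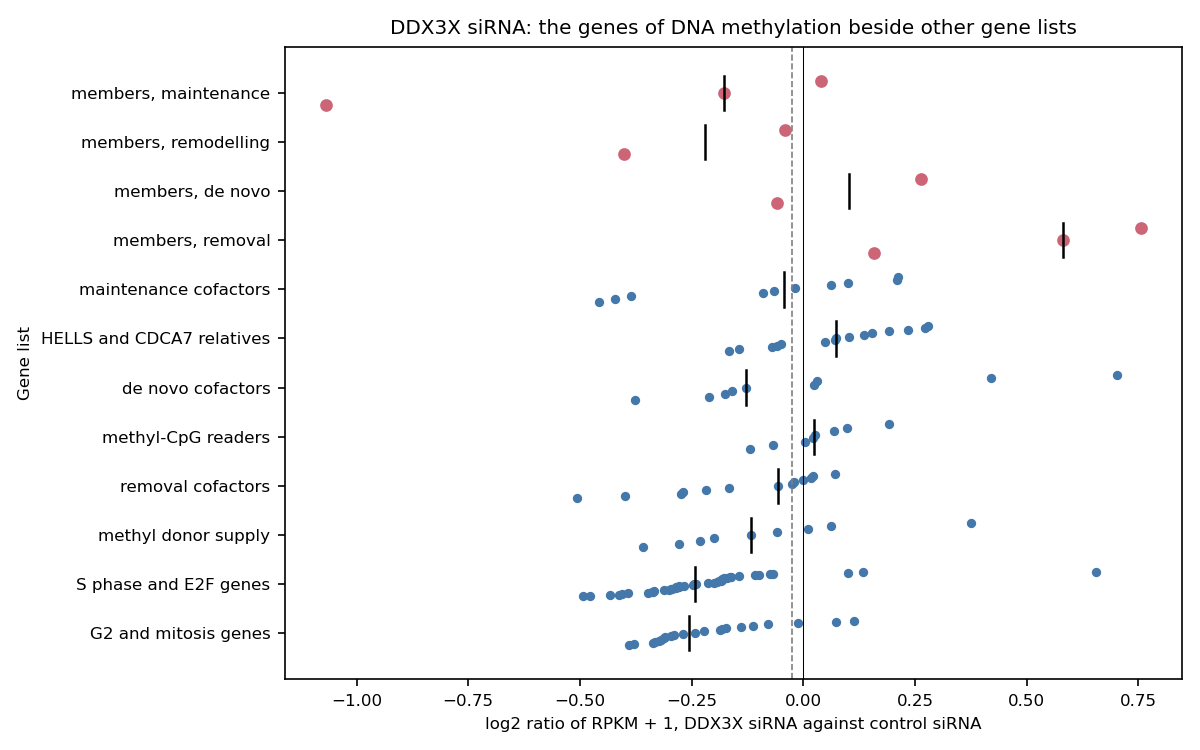
Log2 ratio of RPKM + 1 with DDX3X siRNA against control siRNA (horizontal axis) for the 10 genes by role (red) and for other gene lists (blue), with each point 1 gene. Black ticks are medians and the dashed line is the median of all genes tested. UHRF1 at -1.07 lies below every gene of every list shown, and TET3 at 0.76 above every one.

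None of the other genes of the pathway was past 2-fold with DDX3X siRNA, and NSD1 was the 1 past 1.5-fold. The counts below stand beside 32.8% of all genes higher and 40.1% lower in this comparison. Ratios here were higher in longer rows, with a median of -0.11 in rows of 500 to 1000 bases and 0.19 in rows of 8000 bases or longer. None of the gene lists was matched for row length, and the part of row length in their values was not tested. Of the cofactors of maintenance, 10 of 11 were tested, 4 were higher and 5 lower, and the median was -0.04. The lowest was KIAA0101, a PCNA-binding protein, at -0.46, and the highest was SUV39H1, a histone H3 lysine 9 methyltransferase, at 0.21. Of the 15 relatives of HELLS and CDCA7, 10 were higher and 4 lower with a median of 0.07, from RAD54L at -0.17 to ZBTB24, a zinc finger protein upstream of CDCA7, at 0.28. Of 9 tested cofactors of de novo methylation, 2 were higher and 5 lower (median -0.13), from TRIM28, a corepressor of zinc finger proteins, at -0.38 to NSD1, a histone H3 lysine 36 methyltransferase, at 0.70.

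Of 8 readers of methylated CpG, 3 were higher and 1 lower (median 0.02), from MBD4, a DNA glycosylase, at -0.12 to ZBTB4 at 0.19. Of 13 tested genes that act in removal beside the TET genes, 1 was higher and 7 lower (median -0.06), from APEX1, the base excision endonuclease, at -0.51 to IDH1, which makes the TET cosubstrate, at 0.07. Of 9 genes of methyl donor supply, 2 were higher and 6 lower (median -0.12), from SHMT2 at -0.36 to methionine synthase MTR at 0.37. These medians stand beside -0.02 over all genes tested, and the counts beside 32.8% of all genes higher and 40.1% lower.

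The 1 gene of these pathway lists past 2-fold in any comparison was GADD45A, a stress-induced gene linked to DNA repair and demethylation. It was at 13.1 RPKM with GFP, 32.1 with WT, 36.4 with T275M, 23.5 with G302V, 9.92 with control siRNA and 10.1 with DDX3X siRNA. All 3 DDX3X plasmids gave more than the other 3 libraries, with log2 ratios to GFP of 1.23, 1.41 and 0.80.

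Germline genes, commonly silenced by methylation in somatic cells, were at low levels in every library. Of 20 germline genes with methylated promoters in somatic cells, 1 (SYCP3, of the meiotic chromosome axis) reached 1 RPKM in each library, and the summed level of the list was 2.88 to 3.63 RPKM. SYCP3 was at 2.13 RPKM with control siRNA and 2.49 with DDX3X siRNA, a log2 ratio of 0.16 whose interval included 0. Of 17 imprinted genes, 5 were tested with DDX3X siRNA, 1 was higher and 2 lower (median -0.11), from SGCE at -0.30 to PLAGL1 at 0.19. In this comparison 32.8% of all genes were higher and 40.1% lower (median -0.02). Against GFP, 3 of the 5 were higher and 1 lower with WT (median 0.22), 3 higher and 0 lower with T275M (median 0.34), and 4 higher and 0 lower with G302V (median 0.32). Of all genes, 41.1% were higher and 21.3% lower with WT, 44.2% and 23.4% with T275M, and 35.1% and 26.3% with G302V. Their medians were 0.05, 0.07 and 0.03, and 5 genes are too few to describe imprinted genes as a group. SGCE was past 1.5-fold with WT (0.74) and T275M (0.66). No gene of either list was past 2-fold in any of these comparisons.

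The genes whose profile over the 6 libraries lay closest to UHRF1, by root-mean-square difference of centred log2 values among 6943 genes of at least 10 RPKM on average, were HOXB6 (0.148), ATF4 (0.175), HOXB9 (0.183), IFITM2 (0.187) and EFHD1 (0.187). With DDX3X siRNA their log2 ratios ran from -0.76 for HOXB6 to -0.49 for EFHD1. This comparison is part of the profile, so these ratios describe the genes and are no separate finding. Those closest to HELLS were CDC26 (0.0314), DLGAP5 (0.0347), TEX10 (0.0368), CCNB1 (0.0386) and SRBD1 (0.0393), with ratios from -0.37 for CDC26 to -0.30 for SRBD1.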

How the data were processed

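Total RNA of HEK293T cells was made into TruSeq libraries and sequenced on a HiSeq 2000. Per the methods, the authors trimmed reads with cutadapt, aligned them with BWA (version 0.5.5 in the submitters' processing notes) to hg19, RefSeq, exon junctions and AceView, removed duplicates, and divided the reads of each gene by its length and the library total. The deposited values are RPKM per the file headers (the methods say FPKM). RefSeq rows of 1 gene share reads.

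The product of RPKM and row length is a whole number of steps, each worth 1 read, within 0.1 in 100% of the 7423 to 9032 low rows checked per library. This gave the reads behind each value and depths of 43720000 to 180870000. At these depths 3 reads are 0.0686 to 0.0166 per 1000000. Genes with at least 1 RPKM and 10 reads in 1 of the libraries compared were tested, with a pseudocount of 1 RPKM, Clopper-Pearson intervals for ratios and Poisson intervals for levels. No p-value was computed. On simulated reads for DDX3X siRNA against control siRNA, 100% of 200 changed genes among 12606 were recovered. For WT against GFP, 99% of 200 among 12795 were. The planted changes were larger than any ratio of the 10 genes, left out genes at low level and carried counting error only. They check the calculation and do not bear on smaller changes or on the spread between cultures.

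The members and gene lists were chosen with earlier results of these data known. Named are all 10 members, DDX3X, the lowest and highest gene of each list with DDX3X siRNA, any list gene past 2-fold, and the 5 nearest profiles to UHRF1 and to HELLS. The lists are cofactors of maintenance, of de novo methylation and of removal, relatives of HELLS and CDCA7, methyl-CpG readers, methyl donor supply, S phase and E2F genes, G2 and mitosis genes, germline genes, imprinted genes, and neuron and kidney markers. Alternatives were pseudocounts of 0.1 and 10, no filter, a minimum of 10 RPKM, median-ratio scaling, the mean or longest row, a threshold of 1.5-fold and, added after seeing the data, removal of a fit on row length and GC content. Python 3.11.15, numpy 2.4.6, pandas 2.3.3, scipy 1.17.1 and matplotlib 3.10.9 were used.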

Additional observations from a re-analysis of the deposited data

How the results depend on the processing

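Leaving out a library was not possible with 1 in each group. No paired analysis was possible because each group holds 1 library and the labels carry no replicate numbers. The count of members past 2-fold with DDX3X siRNA was 1 (UHRF1) and became 0 with a pseudocount of 10 and 0 with median-ratio scaling, and 2 at 1.5-fold. For T275M against GFP, T275M against WT and G302V against WT it was 0 and became 1 at 1.5-fold, and for G302V against GFP it was 0 and became 1 at 1.5-fold and 1 with a pseudocount of 0.1, TET1 each time. Median-ratio scaling moved the median of all genes by -0.10 (log2) for WT against GFP. No member past 1.5-fold in a comparison changed sign. Sign changes of small ratios occurred under median-ratio scaling, the longest row or removal of the length and GC fit, for CDCA7, DNMT3B, TET1, TET2 and UHRF2. Of the 70 member ratios, 31 moved beyond their counting interval with median-ratio scaling, 45 with removal of the fit, 13 with a pseudocount of 0.1 and 32 with a pseudocount of 10. None of the 70 did so with the mean over rows, the longest row or no filter, and none of the 42 left by a minimum of 10 RPKM. A filter only sets which genes are kept, so no filter and the minimum of 10 RPKM could not move a ratio. HELLS, TET1 and TET3 have 1 row each, so the mean over rows and the longest row could not move theirs. Counting error was small at these depths, but the spread between cultures is unknown.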
